A study of Mus musculus with 12 samples.

Results

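The genes described here are 10 of the 23352 gene symbols measured in regulatory T cells (Tregs), taken by symbol. They are the S100 genes S100a4, S100a6, S100a10 and S100a11, the galectin genes Lgals1 and Lgals3, the annexin genes Anxa1 and Anxa2, and Vim and Ahnak. Their expression in all 4 groups of libraries was among the values that chose them, so their levels and differences are given as a description, with no test. All groups were sorted Tregs of spleen and lymph nodes (LN) from female C57BL/6 mice, whose age is not given in the labels. KO Tregs came from Foxp3YFP-Cre/Foxp3WT;Ezh2fl/fl mice and HET Tregs from Foxp3YFP-Cre/Foxp3WT;Ezh2fl/+ mice, and each was split by surface CD62L into CD62Llo and CD62Lhi cells. Ezh2 is the methyltransferase of the Polycomb repressive complex PRC2, and CD62L is the adhesion receptor that resting T cells use to enter lymph nodes. HET and KO Tregs thus both carried the Cre and at least 1 floxed Ezh2 allele, and no group without them was analysed here. Foxp3 drives the Cre and lies on the X chromosome, so these heterozygous females hold Tregs with and without an active Cre, and the labels do not say whether Cre-bearing cells alone were sorted. KO CD62Llo, HET CD62Llo and KO CD62Lhi had 3 libraries each and HET CD62Lhi had 2, since replicate 3, which its label sets aside as too shallow, was left out.

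S100 proteins are small calcium sensors that dimerise and bind partner proteins when calcium rises. Annexins bind acidic phospholipids in a calcium-dependent way and organise membrane repair, vesicle traffic and the cortical cytoskeleton, while galectins bind galactose-containing glycans on cell surfaces. In T cells, several of these genes are commonly read as markers of antigen-experienced, migratory cells. S100a10 and Anxa2 proteins form a complex at the plasma membrane, Ahnak is a giant scaffold that binds this complex, and Vim encodes the intermediate filament vimentin.

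Each S100 member lies on mouse chromosome 3, in 2 places of the S100 cluster (mm10). S100a4 (chr3:90603770-90606045) and S100a6 (chr3:90612894-90614414) were separated by 6848 bases. S100a11 (chr3:93520496-93526288) and S100a10 (chr3:93555117-93564645) lay 2906081 bases from S100a6 and 28828 bases from each other. The other members are on chromosome 15 (Lgals1), 14 (Lgals3), 9 (Anxa2), 2 (Vim) and 19 (Anxa1 and Ahnak). RefSeq promoter sequences (GRCm38.p6) were matched for 8 of the 10 genes, all but S100a10 and Lgals1. The 250 bases before the start are printed for the 3 S100 genes with the widest differences between the groups and for Vim, which differed least, 5′ to 3′ on the plus strand. Capitals mark matches on either strand to the AP-1 motif TGANTCA and the TATA box TATAAA.
S100a4 (chr3:90603520-90603769): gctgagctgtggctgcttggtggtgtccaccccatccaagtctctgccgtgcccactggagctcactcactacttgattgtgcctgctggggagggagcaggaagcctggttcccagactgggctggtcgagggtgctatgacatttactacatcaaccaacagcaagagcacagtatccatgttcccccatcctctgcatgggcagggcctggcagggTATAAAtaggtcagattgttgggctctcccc
S100a6 (chr3:90612644-90612893): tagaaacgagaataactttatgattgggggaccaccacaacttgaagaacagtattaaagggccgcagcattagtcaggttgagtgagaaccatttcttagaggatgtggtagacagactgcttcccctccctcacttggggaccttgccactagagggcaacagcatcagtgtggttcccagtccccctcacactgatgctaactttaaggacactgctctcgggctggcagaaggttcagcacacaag
S100a11 (chr3:93520246-93520495): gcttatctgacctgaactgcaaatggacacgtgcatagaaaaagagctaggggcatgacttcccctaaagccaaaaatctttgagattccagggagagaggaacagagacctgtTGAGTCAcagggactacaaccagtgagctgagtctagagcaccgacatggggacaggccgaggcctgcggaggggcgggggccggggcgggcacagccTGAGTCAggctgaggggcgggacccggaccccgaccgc
Vim (chr2:13574061-13574310): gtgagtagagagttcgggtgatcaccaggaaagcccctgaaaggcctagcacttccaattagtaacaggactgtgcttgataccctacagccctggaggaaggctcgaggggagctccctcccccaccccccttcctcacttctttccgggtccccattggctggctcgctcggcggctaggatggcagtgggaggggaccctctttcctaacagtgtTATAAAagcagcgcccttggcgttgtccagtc

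S100a4 and Vim each had a TATA box match, 31 and 32 bases before the start. Anxa1 had one at 32 bases and Anxa2 one at 17 bases, and 12.4% of 32851 promoters of the same length held one. S100a11 held 2 AP-1 matches and Anxa2 held 1, against 6.75% of all promoters with any. S100a11 also held the E-box CACGTG, found in 6.02% of promoters, and S100a6 held 3 matches to the Runx core TGTGGT, found in 14% of promoters. The cores CACCC (Klf) and GGAAG (Ets) were in 5 and 7 of the 8 promoters, but also in 52% and 64.1% of all promoters. The Ets core was the single one of the 6 motifs that S100a4, S100a6 and S100a11 shared. A match is a stretch of letters, not a measured binding site.

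On the log2(FPKM + 1) scale, S100a4 and S100a6 had the widest range of levels among the members. S100a4, a calcium sensor that binds non-muscle myosin, had 44.1, 65.2 and 55.3 FPKM (fragments scaled by transcript length and library depth) in the KO CD62Llo libraries. It had 205, 212 and 251 FPKM in HET CD62Llo, 5.18, 6.42 and 8.55 FPKM in KO CD62Lhi, and 27.2 and 17.2 FPKM in HET CD62Lhi. The 4 groups did not overlap, and their order was HET CD62Llo, KO CD62Llo, HET CD62Lhi and KO CD62Lhi from high to low. The group means were 54.9 ± 10.6 FPKM in KO CD62Llo, 223 ± 24.8 in HET CD62Llo, 6.72 ± 1.70 in KO CD62Lhi (SD, n = 3 each) and 22.2 ± 7.07 in HET CD62Lhi (SD, n = 2). The CD62Llo minus CD62Lhi difference was 2.86 (SE 0.21) in KO and 3.30 (SE 0.23) in HET on the same log2 scale, on which every log2 difference here is given. KO minus HET was -2.01 (SE 0.21) in CD62Llo and -1.58 (SE 0.23) in CD62Lhi. This scale understates the differences of genes with low FPKM. An FPKM is also a share of each library, so fewer cells of a kind and less RNA per cell cannot be told apart.

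S100a6, a small calcium sensor coded next to S100a4, had 16.6, 29.8 and 28.0 FPKM in KO CD62Llo and 91.9, 106 and 106 FPKM in HET CD62Llo. It had 3.95, 5.67 and 8.55 FPKM in KO CD62Lhi, against 17.3 and 14.8 FPKM in HET CD62Lhi. The order of the groups was that of S100a4, except that KO CD62Llo replicate 1, at 16.6 FPKM, fell within the range of the HET CD62Lhi libraries. Between fractions the log2 difference was 1.88 (SE 0.25) in KO and 2.59 (SE 0.28) in HET, and KO minus HET was -2.03 (SE 0.25) in CD62Llo and -1.32 (SE 0.28) in CD62Lhi. The level of S100a4 was 1.98 to 2.66 times that of S100a6 in KO CD62Llo and 2.00 to 2.37 times in HET CD62Llo, both in FPKM. In KO CD62Lhi the ratio was 1 to 1.31 and in HET CD62Lhi 1.16 to 1.58, so it was higher in every CD62Llo library than in any CD62Lhi library. In the annotation S100a4 overlaps Gm42674 on the same strand, and how the authors divided shared reads is not given in the sources used here.

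S100a11, a dimeric calcium sensor with a part in membrane repair, had 224, 252 and 195 FPKM in KO CD62Llo and 442, 489 and 397 FPKM in HET CD62Llo. It had 72.5, 75 and 76.5 FPKM in KO CD62Lhi, against 94.2 and 96.4 FPKM in HET CD62Lhi. No 2 groups overlapped. CD62Llo minus CD62Lhi was 1.56 (SE 0.10) in KO and 2.20 (SE 0.11) in HET, and KO minus HET was -0.98 (SE 0.10) in CD62Llo and -0.35 (SE 0.11) in CD62Lhi. The pseudogene S100a11-ps can share reads with S100a11, and the handling of such reads is not given in the sources used here.

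S100a10, which pairs with annexin A2 and has lost the ability to bind calcium, was the most abundant member in each group. It had 335, 371 and 399 FPKM in KO CD62Llo and 542, 550 and 564 FPKM in HET CD62Llo. It had 294, 285 and 317 FPKM in KO CD62Lhi, against 348 and 333 FPKM in HET CD62Lhi. HET CD62Llo stood above the other 3 groups, and KO CD62Llo overlapped HET CD62Lhi. The CD62Llo minus CD62Lhi difference was 0.30 (SE 0.07) in KO and 0.70 (SE 0.08) in HET, and KO minus HET was -0.59 (SE 0.07) in CD62Llo and -0.19 (SE 0.08) in CD62Lhi. The neighbours S100a10 and S100a11 thus had unlike ranges. S100a10 had 1.47 to 2.04 times the FPKM of S100a11 in KO CD62Llo and 1.12 to 1.42 times in HET CD62Llo, against 3.80 to 4.14 times in KO CD62Lhi and 3.45 to 3.69 times in HET CD62Lhi.

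Anxa2, the membrane-binding partner of S100a10, had 20.0, 34.2 and 34.1 FPKM in KO CD62Llo and 40.3, 57.0 and 39.7 FPKM in HET CD62Llo. It had 18.1, 23.5 and 24.6 FPKM in KO CD62Lhi, against 23.2 and 28.7 FPKM in HET CD62Lhi. HET CD62Llo stood above the other groups, which overlapped one another. Between fractions the log2 difference was 0.37 (SE 0.22) in KO and 0.78 (SE 0.25) in HET, and KO minus HET was -0.64 (SE 0.22) in CD62Llo and -0.23 (SE 0.25) in CD62Lhi. The ratio of S100a10 to Anxa2 in FPKM averaged 13.1 ± 3.19 in KO CD62Llo, 12.4 ± 2.44 in HET CD62Llo, 13.8 ± 2.20 in KO CD62Lhi (SD, n = 3 each) and 13.3 ± 2.44 in HET CD62Lhi (SD, n = 2). These means lay closer together than the spread within any group. Anxa2 overlaps the antisense gene Gm16144 and Mir3109 in the annotation, and without a stated use of strand their reads cannot be told apart from its own.

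Ahnak, the scaffold that binds the S100a10 and annexin A2 complex, had 28.4, 27.1 and 29.8 FPKM in KO CD62Llo and 36.2, 37.6 and 46.1 FPKM in HET CD62Llo. It had 12.3, 8.79 and 13.4 FPKM in KO CD62Lhi, against 11.8 and 10.1 FPKM in HET CD62Lhi. The CD62Llo libraries of both genotypes stood above all CD62Lhi libraries, KO stood below HET in CD62Llo, and the CD62Lhi groups overlapped. CD62Llo minus CD62Lhi was 1.26 (SE 0.14) in KO and 1.77 (SE 0.16) in HET, and KO minus HET was -0.47 (SE 0.14) in CD62Llo and 0.05 (SE 0.16) in CD62Lhi. Ahnak was the single tested member with a positive KO minus HET value in CD62Lhi, and with the replicate number as a block this value was -0.03.

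Among the 9 members that passed the filter on low values, Vim differed least between the groups on the log2 scale. It had 182, 198 and 248 FPKM in KO CD62Llo and 237, 235 and 236 FPKM in HET CD62Llo. It had 235, 219 and 233 FPKM in KO CD62Lhi, against 254 and 250 FPKM in HET CD62Lhi. The CD62Llo minus CD62Lhi difference was -0.14 (SE 0.10) in KO and -0.09 (SE 0.11) in HET. The HET CD62Llo libraries lay below the HET CD62Lhi libraries, while the KO CD62Llo libraries spanned the KO CD62Lhi ones. KO minus HET was -0.19 (SE 0.10) in CD62Llo and -0.13 (SE 0.11) in CD62Lhi.

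Lgals1 encodes galectin-1, a dimeric lectin that Tregs secrete. It had 81.9, 119 and 129 FPKM in KO CD62Llo and 197, 171 and 180 FPKM in HET CD62Llo. It had 89.1, 84.5 and 84.6 FPKM in KO CD62Lhi, against 108 and 109 FPKM in HET CD62Lhi. HET CD62Llo stood above the other groups, and KO CD62Llo replicate 1 lay below every CD62Lhi library while its other libraries lay above them. Between fractions the log2 difference was 0.32 (SE 0.14) in KO and 0.75 (SE 0.16) in HET, and KO minus HET was -0.75 (SE 0.14) in CD62Llo and -0.33 (SE 0.16) in CD62Lhi. Without KO CD62Llo replicate 1 the difference between the KO fractions was 0.52. Lgals1 has the annotated pseudogenes Lgals1-ps1 and Lgals1-ps2, which can share its reads.

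Lgals3 encodes galectin-3, a lectin with a collagen-like tail that macrophages make in quantity. It had 3.47, 8.22 and 1.87 FPKM in KO CD62Llo and 7.59, 4.6 and 3.69 FPKM in HET CD62Llo. It had 0.67, 1.26 and 0.76 FPKM in KO CD62Lhi, against 2.44 and 1.23 FPKM in HET CD62Lhi. CD62Llo libraries stood above CD62Lhi libraries within each genotype, and KO and HET overlapped in both fractions. CD62Llo minus CD62Lhi was 1.39 (SE 0.39) in KO and 1.13 (SE 0.44) in HET, and KO minus HET was -0.31 (SE 0.39) in CD62Llo and -0.56 (SE 0.44) in CD62Lhi. Without KO CD62Llo replicate 3 the KO minus HET value in CD62Llo was 0.08, and without replicate 2 it was -0.76.

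Lyz2, a lysozyme gene of macrophages and neutrophils, had its highest level in the same library as Lgals3. Its FPKM were 124, 219 and 25.6 in KO CD62Llo, 75.2, 50.8 and 40.1 in HET CD62Llo, 7.60, 10.9 and 8.87 in KO CD62Lhi and 12.9 and 8.87 in HET CD62Lhi. In each group the library with the most Lyz2 also had the most Lgals3. The summed FPKM of the 9 measured myeloid markers of 11 listed, of which 4 passed the filter, was 36.2 to 290 in KO CD62Llo, 54.2 to 122 in HET CD62Llo, 18 to 26.9 in KO CD62Lhi and 17.6 to 39.0 in HET CD62Lhi. Of these 9, Mpo was at 0 in both HET CD62Lhi libraries and no marker was at 0 throughout any other group. Lyz2 led the sum, and the other markers reached at most 35.6 FPKM in any library. Csf1r, Fcer1g and Tyrobp, which also passed the filter, overlapped between the fractions in both genotypes. The part of myeloid RNA in the Lgals3 levels was not tested. S100a8 and S100a9, the calprotectin genes that neutrophils express at very high levels, reached at most 0.82 and 0.27 FPKM in any of the 11 libraries.

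Anxa1, a phospholipid-binding protein and ligand of formyl peptide receptors, was the one member that did not pass the filter, an FPKM of 1 or more in 2 or more libraries. It had 0.71, 0.70 and 0.24 FPKM in KO CD62Llo, 1.06, 0.32 and 0.71 FPKM in HET CD62Llo, 0.34, 0.30 and 0.18 FPKM in KO CD62Lhi and 0.62 and 0.13 FPKM in HET CD62Lhi. All 4 groups overlapped, and no log2 difference is given for Anxa1.

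**Figure D1:**
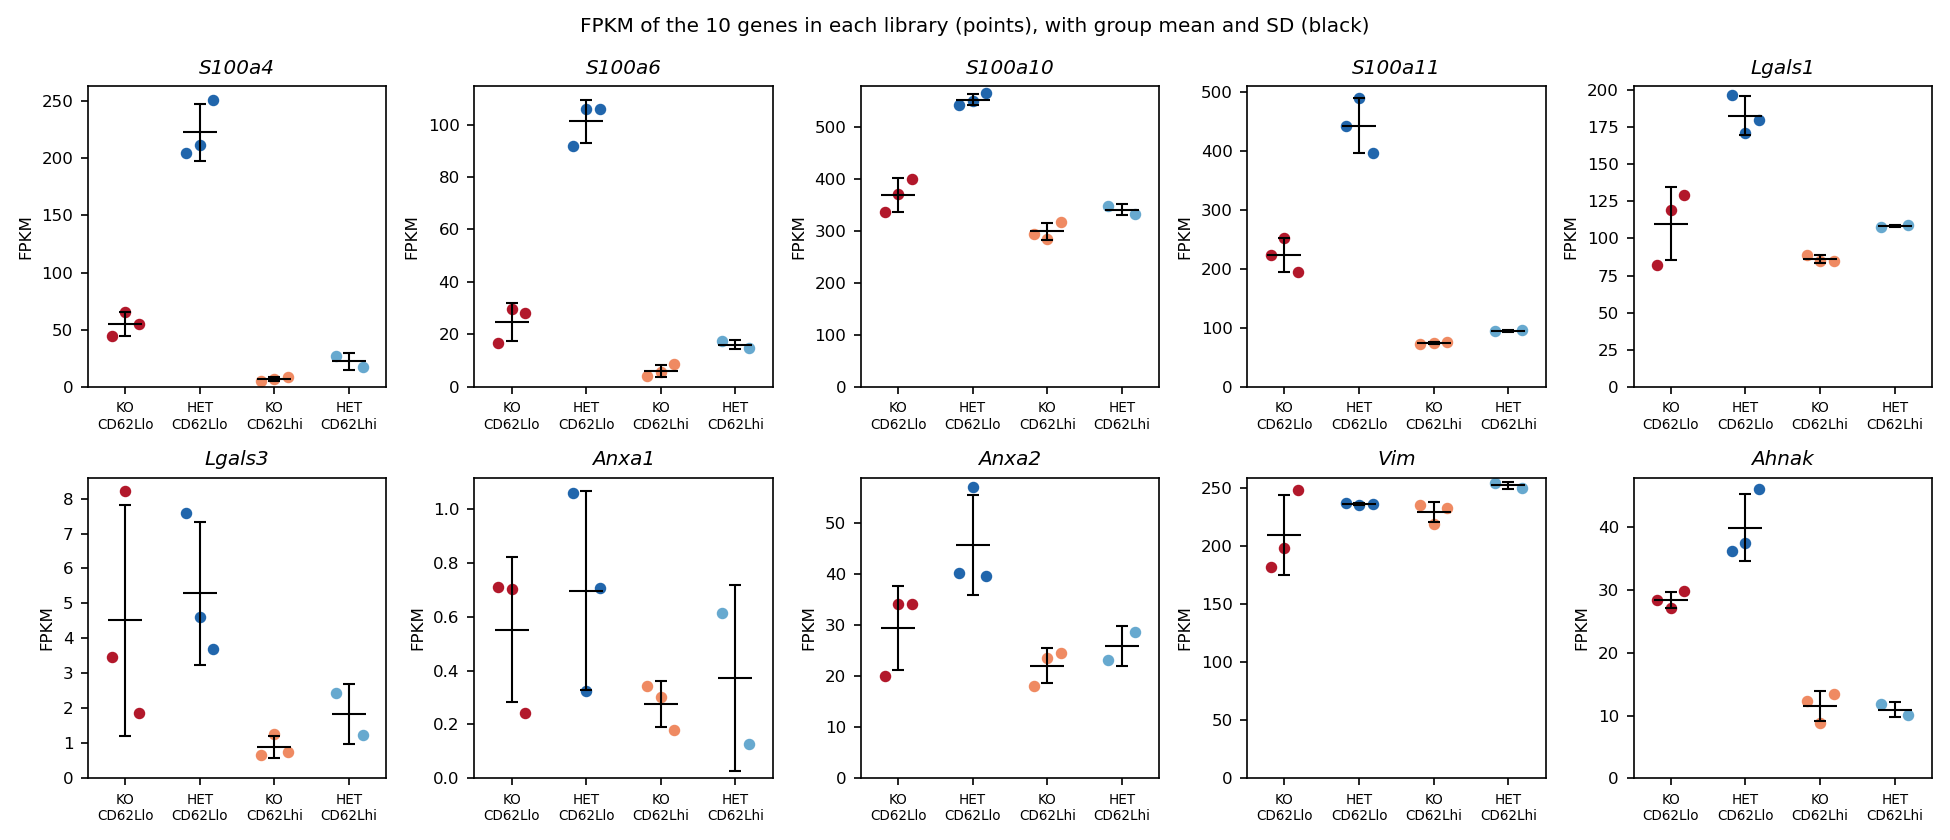
FPKM of the 10 genes in each library (points), by group on the horizontal axis, with the group mean and SD in black (n = 3, and n = 2 for HET CD62Lhi); each panel has its own axis from 0. HET CD62Llo stands above the other groups for S100a4, S100a6, S100a10, S100a11, Lgals1, Anxa2 and Ahnak, and not for Vim, Lgals3 or Anxa1.

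The 9 members that passed the filter were read beside all 11431 tested genes. Between the KO fractions 6 members were called higher in CD62Llo and 0 lower (limma, Benjamini-Hochberg, adjusted p under 0.05), against 16.2% of all genes called, 11.9% higher and 4.26% lower. Between the HET fractions 7 were called higher and 0 lower, against 27.7% of all genes called, 18.8% higher and 8.88% lower. KO against HET in CD62Llo called 5 lower and 0 higher, against 4.6% of all genes, 3.25% lower and 1.36% higher. For KO against HET in CD62Lhi 0 members were called, as were 0 of all genes (0%). In that contrast 328 genes had an unadjusted p under 0.05, fewer than the share of 0.05 that no difference would give. A fit of those 2 groups alone called 5 genes. The counts of members moved with the settings. Fits of 2 groups alone called 4 members higher between the KO fractions, beside 1105 of all genes. They called 4 lower in KO against HET CD62Llo, beside 84. With the replicate number as a block, 8 were higher between the HET fractions, beside 2505 of all genes. The block called 7 lower in KO against HET CD62Llo, beside 525. The members were chosen on these contrasts, so their counts are a description of these fits and nothing is read from them.

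Between the KO fractions, 6 members lay higher in every CD62Llo library than in any CD62Lhi library, against 24.3% of all genes, and 0 lay lower, against 10.5%. Between the HET fractions 8 did, against 36.1%, and 1, Vim, lay lower, against 17.9%. KO lay below HET without overlap for 7 members in CD62Llo, against 13.7% of all genes, and for 6 in CD62Lhi, against 14.4%. KO lay above HET in this way for 0 members, against 6.55% of all genes in CD62Llo and 7.83% in CD62Lhi. The median log2 difference of the 9 members was 1.26 between the KO fractions, 1.13 between the HET fractions, -0.64 for KO minus HET in CD62Llo and -0.33 in CD62Lhi. Over all tested genes these medians were 0.05, 0.07, -0.03 and -0.02.

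The fraction difference in KO minus that in HET was negative for 8 of the 9 members, with a median of -0.42, against -0.01 over all genes. It was -0.71 for S100a6, -0.64 for S100a11, -0.44 for S100a4 and -0.40 for S100a10, and 0.25 for Lgals3. This contrast called 0 members and 1 of all genes (0.00875%), and 868 genes had an unadjusted p under 0.05. The contrasts share libraries, so their values are set side by side and are not independent.

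**Figure D2:**
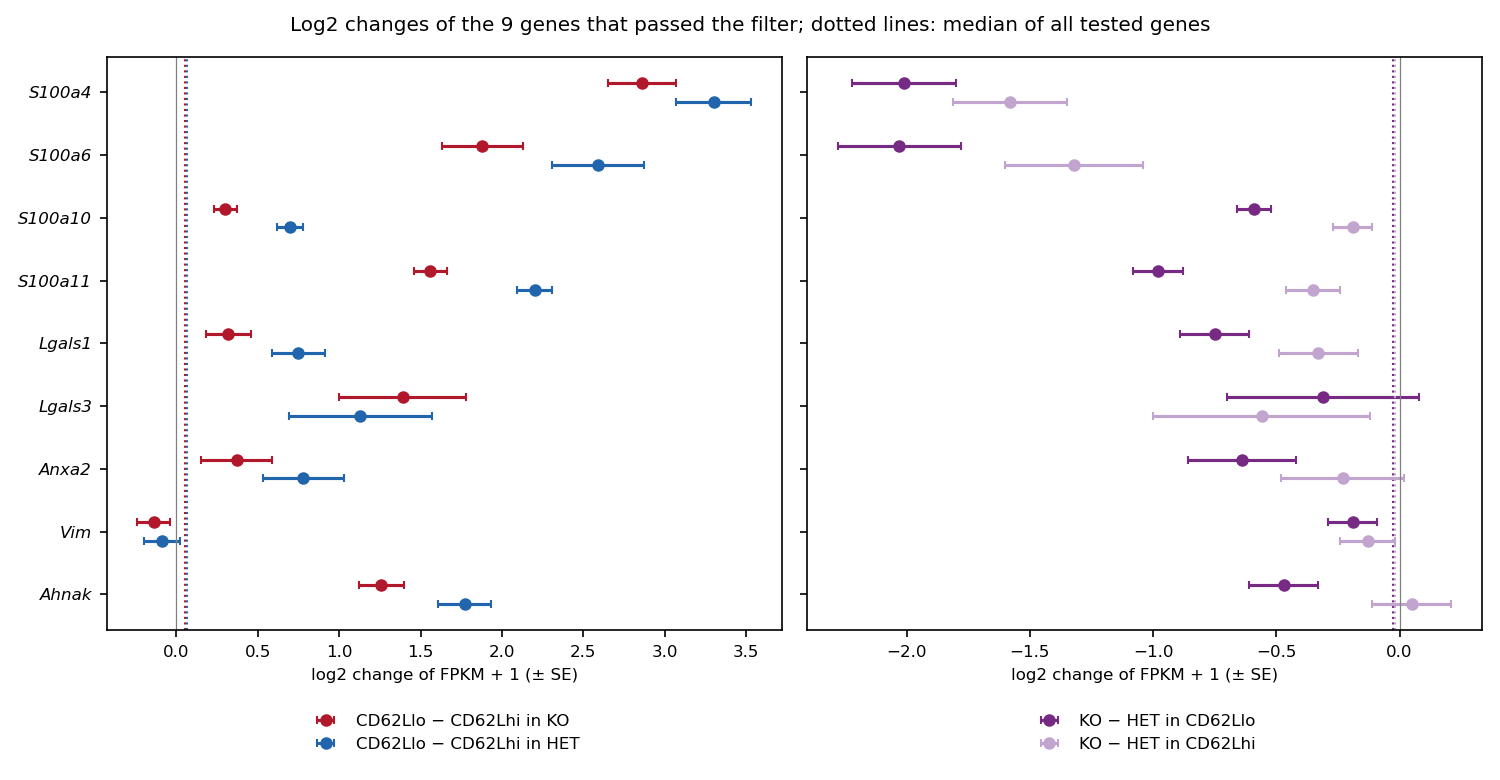
Log2 differences of FPKM + 1 with SE (horizontal axis) of the 9 genes that passed the filter, CD62Llo minus CD62Lhi on the left and KO minus HET on the right; dotted lines are the medians of all tested genes. S100a4 lies at 2.86 and 3.30 on the left and at -2.01 and -1.58 on the right, while Vim lies near 0 in all.

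Summed over the 10 genes, FPKM was 936 to 1120 in KO CD62Llo, 1800 to 1862 in HET CD62Llo, 710 to 767 in KO CD62Lhi and 859 to 886 in HET CD62Lhi. S100a10 led this sum in each group. S100a11 and Vim followed in both CD62Llo groups, in that order, while Vim and Lgals1 followed in both CD62Lhi groups. S100a4 stood above Anxa2 in both CD62Llo groups and below it in both CD62Lhi groups. The authors' deposited table, with 1 pooled value for each group, gave S100a4 64.4 FPKM in KO CD62Llo, 256 in HET CD62Llo, 8.32 in KO CD62Lhi and 25.9 in HET CD62Lhi. In the authors' deposited table Vim had 243, 267, 277 and 293 FPKM in the same order of groups.

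Across the 11 libraries, S100a4 and S100a6 had a Pearson r of 0.99 on the log2(FPKM + 1) scale, and S100a10 and Lgals1 had 0.96. S100a10 and Anxa2 had 0.88. Vim had r between -0.35 and 0.36 with the other tested members. These correlations are over libraries that fall into 4 groups and are given as a description. The mean standardized level of the 9 members was most like that of Heg1 (r of 0.985), Plagl2 (0.984), Serpinb6b (0.983), Osbpl3 (0.981) and Myo1f (0.980), among non-members with a group mean of at least 5 FPKM. Myo1f, which encodes a class I myosin of blood cells, had 4.51, 7.98 and 5.87 FPKM in KO CD62Llo and 20.5, 20.6 and 19.4 in HET CD62Llo. It had 1.02, 1.61 and 1.52 FPKM in KO CD62Lhi and 3.09 and 1.97 in HET CD62Lhi, so its groups stood in the order of S100a4 with no overlap.

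Of a list of 30 other S100, annexin and galectin genes, 13 passed the filter and were tested. The list left out S100a2, which also passed. It was chosen with earlier results of these data known, so nothing is read from its counts. Between the KO fractions 3 were higher in CD62Llo and 1 was lower, and between the HET fractions 5 were higher and 1 lower, which is 4 and 6 of 13 beside the 16.2% and 27.7% of all genes. With S100a2, 14 were tested and 7 were called between the HET fractions, while the other counts were as given. KO was lower than HET in CD62Llo for 1, beside 3.25% of all genes, and in CD62Lhi 0 were called. Most of the S100 family was scarcely measured, with 10 of 13 other S100 genes, S100a2 included, below the filter. S100a13, a calcium sensor of the non-classical secretion route, was well measured, with means of 51.1 ± 4.86 FPKM in KO CD62Llo, 58.4 ± 1.16 in HET CD62Llo, 53.0 ± 2.11 in KO CD62Lhi (SD, n = 3 each) and 54.8 ± 5.93 in HET CD62Lhi (SD, n = 2). It passed in no contrast, with log2 differences between -0.19 and 0.09.

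Among the annexins, Anxa4 differed most between the fractions. It had 4.19, 5.77 and 3.75 FPKM in KO CD62Llo and 6.88, 6.70 and 6.38 FPKM in HET CD62Llo. It had 1.94, 1.58 and 1.45 FPKM in KO CD62Lhi, against 1.99 and 2.00 FPKM in HET CD62Lhi. Anxa4 rose in CD62Llo by 1.06 in KO (SE 0.12, adjusted p = 0.000543, limma) and by 1.35 in HET (SE 0.14, adjusted p = 0.000123, limma), with no overlap of the libraries. Its KO minus HET difference in CD62Llo was -0.47 (SE 0.12) and was called in 3 of 20 alternatives, among them the replicate number as a block at adjusted p = 0.048 (limma, from 0.00916 to 0.204 across the alternatives). Without KO CD62Llo replicate 2 it was -0.62 and was called. Anxa7, a membrane-fusion annexin, rose in CD62Llo by 0.29 in KO (adjusted p = 0.0378, limma) and by 0.43 in HET (adjusted p = 0.00614, limma). The KO call of Anxa7 stood in 9 of 20 alternatives and was lost without any 1 of 8 libraries, at 0.23 to 0.30. Its HET call was lost without HET CD62Lhi replicate 2, at 0.40. Anxa5, the phosphatidylserine binder, had differences of 0.29 in KO and 0.30 in HET that missed the threshold (adjusted p = 0.0820 and 0.0758, limma). Both passed without KO CD62Llo replicate 3, at 0.38 in KO and 0.30 in HET, and the HET difference also passed without HET CD62Llo replicate 3, at 0.38. Anxa6, the most abundant annexin in this set, had fraction differences of -0.15 in KO and -0.04 in HET that missed it too.

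Among the galectins, Lgals9 moved the other way. Lgals9, which encodes galectin-9, had 99.4, 110 and 111 FPKM in KO CD62Llo and 103, 105 and 101 FPKM in HET CD62Llo. It had 125, 124 and 120 FPKM in KO CD62Lhi, against 119 and 129 FPKM in HET CD62Lhi. It fell in CD62Llo by 0.20 in KO (SE 0.05, adjusted p = 0.0308, limma) and by 0.26 in HET (SE 0.06, adjusted p = 0.0102, limma), and the KO call stood in 14 of 20 alternatives. It was lost without any KO library but CD62Llo replicate 3, at -0.23 to -0.15, and the HET call without HET CD62Lhi replicate 2, at -0.20. Lgalsl, a galectin-like gene without sugar binding, rose in CD62Llo by 0.82 in KO (SE 0.15, adjusted p = 0.00544, limma) and by 1.46 in HET (SE 0.17, adjusted p = 0.000234, limma). Its level was low, at 1.90 to 2.29 FPKM in KO CD62Llo and 2.97 to 3.66 FPKM in HET CD62Llo. Lgals7 rose between the HET fractions by 0.93 (SE 0.18, adjusted p = 0.00478, limma). Lgals7 was lower still in level, at 0.783 to 1.28 FPKM in KO CD62Llo and 1.27 to 2.55 FPKM in HET CD62Llo. In CD62Lhi it reached at most 0.717 FPKM, so its differences lie among very low values. The Lgals7 difference was 0.31 between the KO fractions (adjusted p = 0.249, limma), and the difference between the genotypes missed the threshold (-0.62, adjusted p = 0.601, limma). Lgals8 and Lgals4 passed in no contrast of the main fit. Lgals4 had 10.3, 8.88 and 8.07 FPKM in KO CD62Llo, above the 6.75, 6.46 and 6.35 FPKM in HET CD62Llo. This difference of 0.42 was called without KO CD62Lhi replicate 3 (adjusted p = 0.0272, limma). Lgals8 was called between the HET fractions without HET CD62Llo replicate 1, at 0.19 (adjusted p = 0.0497, limma).

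**Figure D3:**
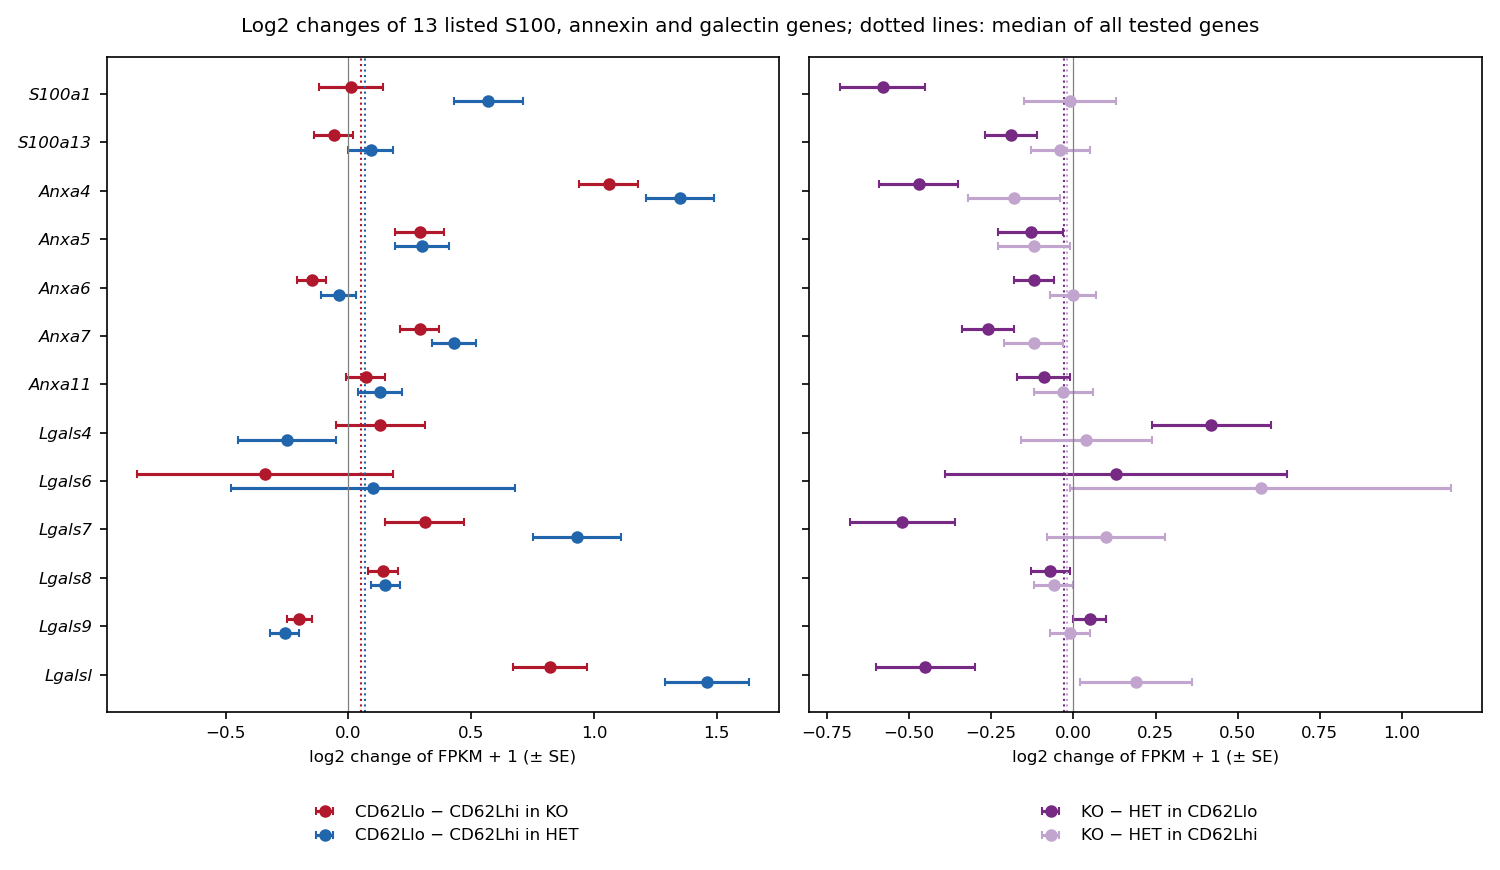
Log2 differences of FPKM + 1 with SE (horizontal axis) of the 13 tested genes of the list of other S100, annexin and galectin genes, without S100a2, CD62Llo minus CD62Lhi on the left and KO minus HET on the right; dotted lines are the medians of all tested genes. Anxa4 at 1.06 and 1.35 and Lgalsl at 0.82 and 1.46 lie farthest to the right between the fractions.

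The partners of these proteins were a mixed list, of which 13 of 17 were tested. Between the KO fractions 5 were higher and 1 lower in CD62Llo, between the HET fractions 6 were higher and 1 lower, and in KO against HET CD62Llo 3 were lower. These are 46.2%, 53.8% and 23.1% of the 13, beside 16.2%, 27.7% and 4.6% of all genes. The list was chosen with earlier results of these data known, so nothing is read from these shares. Itgb1, the integrin beta 1 chain that galectins bind, had 54.8, 56.9 and 59.0 FPKM in KO CD62Llo and 90.0, 90.7 and 95.7 FPKM in HET CD62Llo. It had 26.1, 25.3 and 36.9 FPKM in KO CD62Lhi, against 35.3 and 30.2 FPKM in HET CD62Lhi. Itgb1 rose in CD62Llo by 0.95 in KO (SE 0.12, adjusted p = 0.00105, limma) and by 1.47 in HET (SE 0.14, adjusted p = 8.31e-05, limma). It was lower in KO than in HET CD62Llo by a log2 difference of -0.69 (SE 0.12, adjusted p = 0.0170, limma), with no overlap. The other 2 genes lower in KO CD62Llo were Havcr2, which encodes Tim-3, a proposed receptor of galectin-9, at -0.75 (SE 0.14, adjusted p = 0.0204, limma), and Gcnt1, a core 2 O-glycan enzyme, at -1.11 (SE 0.11, adjusted p = 0.00172, limma). Both had low levels. Havcr2 averaged 1.78 FPKM in KO CD62Llo and 3.76 in HET CD62Llo, and Gcnt1 averaged 1.3 and 3.96 FPKM. The Gcnt1 call stood in 19 of 19 alternatives with a value, the Havcr2 call in 13 of 19 and the Itgb1 call in 17 of 20. The Itgb1 call was lost without HET CD62Llo replicate 2 or 3 or KO CD62Llo replicate 1, at -0.70 to -0.66. The Havcr2 call was lost without any of these or KO CD62Llo replicate 3, at -0.79 to -0.65.

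Cd7, a galectin-1 receptor on T cells, was the partner that fell in CD62Llo, by 0.59 in KO (SE 0.15, adjusted p = 0.0245, limma) and by 1.40 in HET (SE 0.16, adjusted p = 0.000281, limma). Its KO call was lost in a fit of the 2 groups alone. This call was also lost without replicate 1 or 2 of either KO fraction, at -0.62 to -0.45. The sialyltransferase St6gal1, which caps the glycans that galectin-1 binds, rose in CD62Llo by 0.36 in KO (adjusted p = 0.0160, limma) and by 0.35 in HET (adjusted p = 0.0170, limma). The KO call of St6gal1 was lost in a fit of the 2 groups alone and without KO CD62Llo replicate 1 or 2 or KO CD62Lhi replicate 3, at 0.28 to 0.36. Its HET call was lost without either HET CD62Lhi library, at 0.34 and 0.37. Mgat5, which builds branched glycans that galectins bind, rose by 0.36 in KO (adjusted p = 0.00789, limma) and by 0.46 in HET (adjusted p = 0.00232, limma). Ptprc, which encodes the glycoprotein CD45, rose between the HET fractions by 0.24 (adjusted p = 0.0171, limma). This call was lost with median centring, at 0.14, in a fit of the 2 groups alone, and without either HET CD62Lhi library, at 0.23 and 0.24.

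All 24 listed genes of the cortical and actin cytoskeleton were tested. In KO, 0 were higher and 3 lower in CD62Llo, and in HET 2 were higher and 8 lower. These are 12.5% and 41.7% of the list, beside 16.2% and 27.7% of all genes. This list too was chosen with earlier results of these data known, so nothing is read from these shares. With each library centred on its median, 0 were higher and 12 lower in KO, and 1 higher and 13 lower in HET. With quantile scaling, 0 were higher and 4 lower in KO, and 3 higher and 6 lower in HET. Tmsb4x, a thymosin gene, was -0.23 between the HET fractions and not called, and its direction turned with the scaling, at -0.33 with median centring (adjusted p = 0.0108, limma) and 0.21 with quantile scaling (adjusted p = 0.0475, limma). The 3 that fell in both genotypes were Emp3, Crip1 and Msn, the membrane linker moesin. Msn fell by 0.31 in KO (SE 0.05, adjusted p = 0.00517, limma) and by 0.42 in HET (SE 0.06, adjusted p = 0.000977, limma). The actin-sequestering gene Tmsb10 fell between the HET fractions by 0.70 (SE 0.09, adjusted p = 0.000595, limma), as did the coronin gene Coro1a by 0.37 (SE 0.09, adjusted p = 0.0134, limma). With quantile scaling neither was called, at -0.27 for Tmsb10 (adjusted p = 0.0573, limma) and -0.06 for Coro1a (adjusted p = 0.622, limma). The Coro1a call was also lost without either HET CD62Lhi library, at -0.36 and -0.38. The 2 that rose in HET CD62Llo were the actin-bundling gene Lcp1, by 0.34 (adjusted p = 0.0249, limma), and the actin-capping gene Capg, by 0.78 (adjusted p = 0.00477, limma). The Lcp1 call was lost with median centring, at 0.24, in a fit of the 2 groups alone, and without HET CD62Llo replicate 3 or HET CD62Lhi replicate 2, at 0.28 and 0.26. Capg was also lower in KO than in HET CD62Llo, at -0.61 (adjusted p = 0.0390, limma), a call that stood in 7 of 20 alternatives and was lost without any 1 of 9 libraries, at -0.67 to -0.53.

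Of 10 further intermediate filament, lamin and giant linker genes, 4 were tested. Plec, a giant linker that ties intermediate filaments to the membrane, fell in CD62Llo by 0.54 in KO (SE 0.14, adjusted p = 0.0280, limma) and by 0.84 in HET (SE 0.16, adjusted p = 0.00325, limma), while Ahnak was higher there. The KO call of Plec was lost with no filter on low values and in a fit of the 2 groups alone. This call was also lost without KO CD62Llo replicate 2 or KO CD62Lhi replicate 1 or 2, at -0.53 to -0.38. The lamin gene Lmnb1 rose between the HET fractions by 0.48 (SE 0.11, adjusted p = 0.0109, limma), a call lost without HET CD62Lhi replicate 2, at 0.43. For KO against HET, 0 of these 4 were called in either fraction.

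Within 250 kb of the 4 S100 members on chromosome 3 lay 30 genes with these 4 included, and 9 of the others were tested. All 9 lay around S100a4 and S100a6. No other gene around S100a10 and S100a11 passed the filter, so the counts of neighbours do not cover that place. Between the KO fractions 0 of the 9 were called, beside 16.2% of all genes, and between the HET fractions 3 were higher in CD62Llo, beside 18.8% of all genes called higher. These were Ints3, at 0.23 (SE 0.06, adjusted p = 0.0148, limma), S100a1, at 0.57 (SE 0.14, adjusted p = 0.0152, limma), and S100a2, at 1.02 (SE 0.31, adjusted p = 0.0375, limma). S100a1, a calcium sensor known best from muscle, had 0.936, 1.13 and 1.05 FPKM in KO CD62Llo and 1.59, 2.64 and 1.98 FPKM in HET CD62Llo. It had 1.23, 1.03 and 0.832 FPKM in KO CD62Lhi, against 1.09 and 0.989 FPKM in HET CD62Lhi. S100a1 was lower in KO than in HET CD62Llo at -0.58 (SE 0.13, adjusted p = 0.0371, limma), and this call stood in 9 of 19 alternatives. It was lost without any 1 of 9 libraries, at -0.61 to -0.45, and the call between the HET fractions was lost without either HET CD62Lhi library, at 0.61 and 0.54. The call between the HET fractions was also lost with quantile scaling, at 0.38, and in a fit of the 2 groups alone. S100a1 was the single neighbour called in KO against HET CD62Llo, 1 of 9 beside 4.6% of all genes. S100a2 averaged 0.278 ± 0.241 FPKM in KO CD62Llo, 1.57 ± 1.03 in HET CD62Llo, 0.244 ± 0.212 in KO CD62Lhi (SD, n = 3 each) and 0.224 ± 0.317 in HET CD62Lhi (SD, n = 2), so this difference lies among very low values. Its HET call stood in 9 of 19 alternatives and was lost without either HET CD62Lhi library, at 0.75 and 1.29, without HET CD62Llo replicate 3, at 0.71, and without KO CD62Lhi replicate 2, at 1.02. The Ints3 call stood in 15 of 20 and was lost without either HET CD62Lhi library, at 0.26 and 0.20. KO minus HET of S100a2 in CD62Llo was -0.95 and was called with the replicate number as a block alone (adjusted p = 0.0299, limma). S100a3, whose start lies 3.6 kb before that of S100a4, averaged 0.316 ± 0.258 FPKM in KO CD62Llo and 1 ± 0.12 in HET CD62Llo (SD, n = 3 each). It did not pass the filter. S100a5, between S100a4 and S100a6, reached at most 0.137 FPKM.

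**Figure D4:**
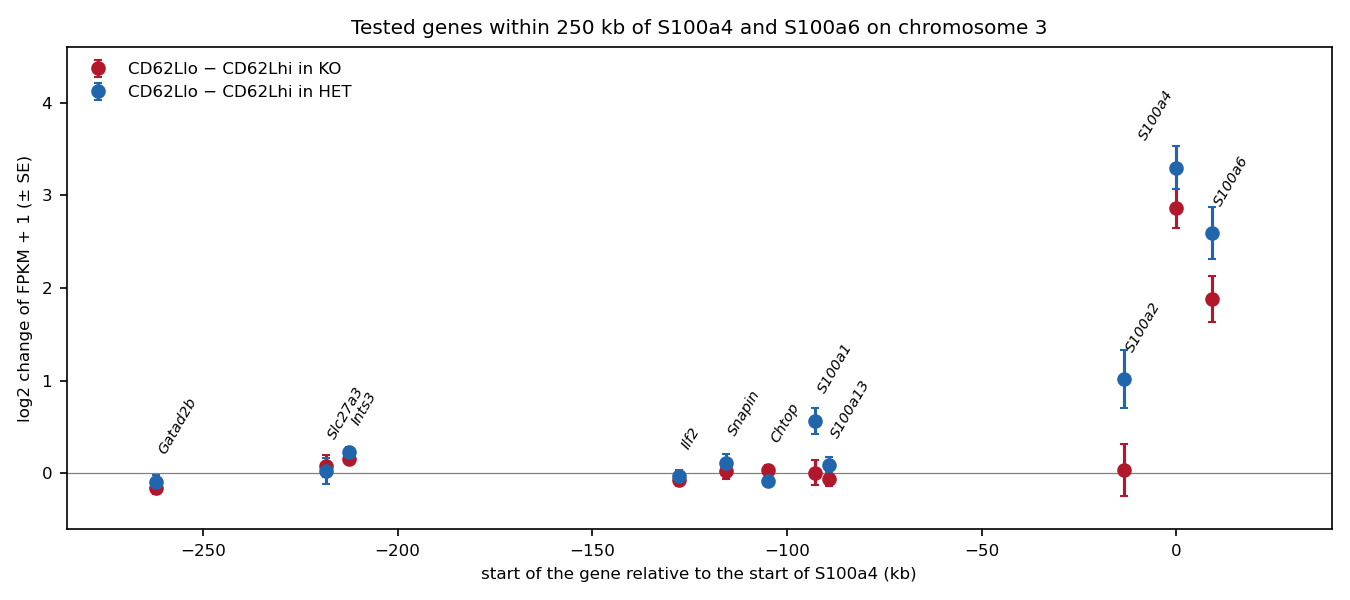
Log2 difference of FPKM + 1, CD62Llo minus CD62Lhi, with SE (vertical axis) of the tested genes around S100a4 and S100a6, by the distance of each gene's start from that of S100a4 (horizontal axis, kb). S100a4 and S100a6 stand at 1.88 and above, S100a2 at 1.02 in HET, and the genes farther away between -0.16 and 0.57.

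The libraries also differed in markers of cell types and in Ezh2. The summed FPKM of the 8 Treg markers, all present, was 1630 to 1810 in KO CD62Llo, 1860 to 2109 in HET CD62Llo, 1379 to 1416 in KO CD62Lhi and 1392 to 1493 in HET CD62Lhi. Cd3g, at 487 to 741 FPKM, led this sum. In the same order of groups, Foxp3 averaged 84.2, 88, 87.8 and 91.8 FPKM and Il2ra 124, 123, 121 and 123 FPKM. The CD62Llo minus CD62Lhi difference was positive for 7 of the 8 in each genotype, and KO minus HET in CD62Llo was negative for 7. Ezh2, by its whole-gene FPKM, had 12.5, 16.8 and 14.4 in KO CD62Llo, 18.2, 17.8 and 20.5 in HET CD62Llo, 9.15, 11.5 and 11 in KO CD62Lhi and 12.7 and 12.5 in HET CD62Lhi. KO minus HET of Ezh2 missed the threshold in both fractions (adjusted p = 0.113 and 1, limma), and a whole-gene FPKM does not resolve the floxed exons. Summed B cell markers (6 of 6 measured) had 24.8 to 61.3 FPKM in KO CD62Llo, 19.5 to 32.8 in HET CD62Llo, 73.9 to 127 in KO CD62Lhi and 76.6 to 92.5 in HET CD62Lhi. Summed CD8 T and NK cell markers (6 of 6) had 13.6 to 20.5 FPKM in KO CD62Llo, 15.4 to 17.8 in HET CD62Llo, 32.0 to 39.3 in KO CD62Lhi and 41.7 to 47.2 in HET CD62Lhi. Cd8b1, at 8.66 to 33 FPKM, led this sum. Of the 5 that passed the filter, 4 were lower in CD62Llo in each genotype and 1, Klrb1c, was higher. Summed plasma cell markers (4 of 5) ranged from 28.9 to 48.1 FPKM, and red cell and platelet markers (5 of 6) from 3.14 to 227 FPKM over the 11 libraries. Xbp1, at 27.5 to 40.4 FPKM, made up most of the plasma cell sum, and Hba-a1, at 2.97 to 225 FPKM, most of the red cell and platelet sum. Of the 10 stromal and endothelial markers, Pecam1 had 36.8 to 78.6 FPKM and the other 9 reached at most 0.451 FPKM in any library. Their part in the levels of the members was not tested.

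**Figure D5:**
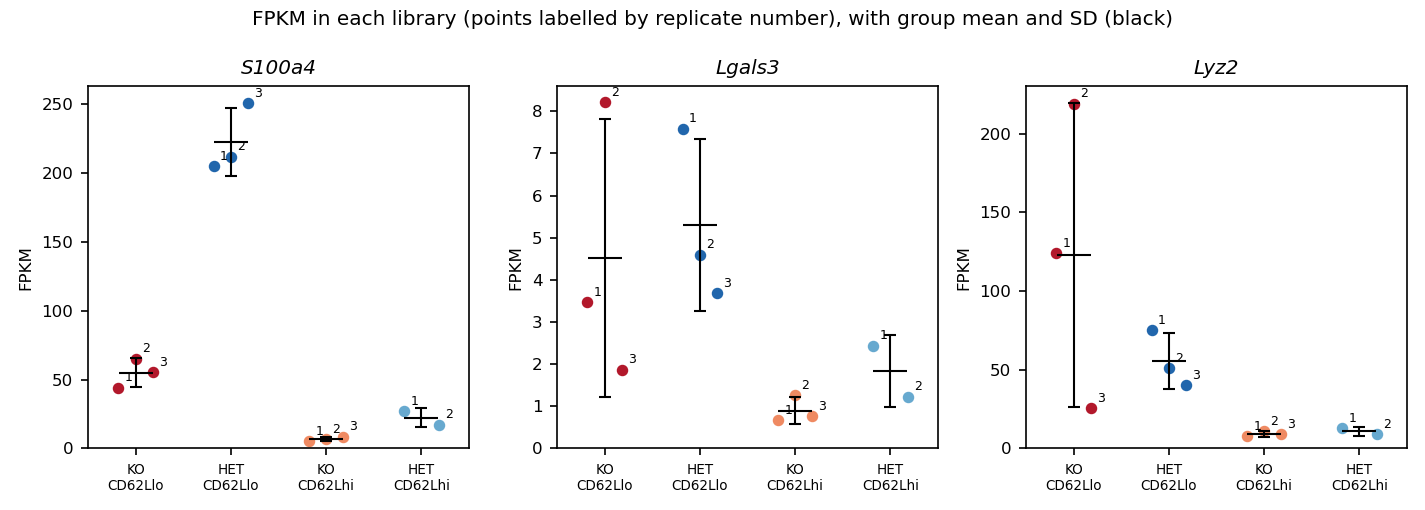
FPKM of S100a4, Lgals3 and Lyz2 in each library (points with their replicate number; group mean and SD in black), by group. Lgals3 and Lyz2 are both highest in KO CD62Llo replicate 2, at 8.22 and 219 FPKM.

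The precision of single values came from the deposited interval around each FPKM. As a percent of the midpoint of the interval, the half-width was 5.34% to 30.9% for S100a4, 2.82% to 6.08% for S100a10, 1.85% to 4.20% for Vim, 13.9% to 44.4% for Lgals3 and 37.7% to 100% for Anxa1. Of the 110 member values, 75 in 7 genes lay above their own upper bound; what the bounds refer to is not stated, and they are a guide to relative precision only. The depth implied by FPKM and bounds was 7300000 to 28400000 fragments, an estimate, and 10597 to 11024 genes reached an FPKM of 1 in each library.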

How the data were processed

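RNA of sorted Tregs was sequenced by the authors as poly(A) TruSeq libraries. The deposited values are FPKM per gene and library, for which the submitters' processing notes name Cufflinks 2.1.1, TopHat, CASAVA 1.8.2 and FastQC, and mm10. No source used here states the settings, the handling of multi-reads or the use of strand. The FPKM intervals and pooled group FPKM were deposited by the authors too. Counts were not analysed here, and tests fit FPKM.

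Entries of 1 symbol were summed. The 11 libraries were fitted together on log2(FPKM + 1) with limma 3.58.1 in R 4.3.3, with 4 group means, a trended prior and Benjamini-Hochberg adjustment at 0.05 over the 11431 genes that reached 1 FPKM in 2 or more libraries. The fit was tested on simulated data. The members and lists were chosen with earlier results of these data known. Members, called list genes and the most abundant members of a list were named, up to 6 a list; Lgals7, Lcp1, Capg, Emp3, Crip1, Msn, Cd7, Mgat5, Havcr2, Gcnt1 and Myo1f's values were picked after their values were seen.

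Nothing in the labels says that replicates were separate animals, so p-values measure the spread between these samples, which may be technical. Labels name no shared litter or day. KO and HET CD62Llo libraries of the same number deviated weakly together from their group means, at r of 0.165, 0.153 and 0.148. Those of unlike number had r of -0.237 to 0.0844. Between the KO fractions, pairs of the same number had r of 0.131, 0.0684 and 0.178, against -0.178 to 0.0858 for unlike numbers. Between the HET fractions these were 0.135 and 0.0732, against -0.135 to 0.0603. For KO and HET CD62Lhi they were 0.0749 and -0.0325, against -0.0875 to 0.0875. The main fit, which gave the differences, SE and p-values of the Results, held no pairing. The replicate block, an alternative that rests on correlation alone, called 755 genes in KO against HET CD62Llo, beside 526 in the main fit. The 20 alternatives covered pseudocounts of 0.1 and 5, filters, quantile and median scaling, fits of 2 groups, no trend, the replicate block and each library left out.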

Additional observations from a re-analysis of the deposited data

Results flagged for a closer look

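HET CD62Lhi replicate 3, the library its label sets aside as too shallow, held values above 0 for 589 of 23846 entries. Of the 10 genes described here S100a11 was the single one above 0 in it, at 2486 FPKM, against 94.2 and 96.4 FPKM in the HET CD62Lhi libraries that were used. It was singled out because the library lies outside the comparisons. Other genes were also far above their levels in the used HET CD62Lhi libraries, such as Hba-a1 at 1913 FPKM and Spn at 587 FPKM. The value is therefore not read as a level of S100a11. No value of the report rests on this library.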

How the results depend on the processing

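Of 101 values called for listed genes and members, 0 changed sign under the 20 alternatives. Tmsb4x between the HET fractions, at -0.23 and not called, was called in both directions, at 0.21 with quantile scaling and -0.33 with median centring. Lgals3, not called for KO minus HET in CD62Llo, was 0.08 without KO CD62Llo replicate 3. The members' median log2 difference was 0.64 between the KO fractions with a pseudocount of 5 and 0.81 with no filter. Between the HET fractions it was 1.49 with a pseudocount of 0.1, 0.73 with 5, 0.96 with no filter, 0.96 with quantile scaling and 1.34 with the replicate block, and for KO minus HET in CD62Lhi it was -0.21 with a pseudocount of 5. Called family genes numbered 3 between the HET fractions with a filter at 5 FPKM. In KO against HET CD62Llo they numbered 2 with a pseudocount of 5, 2 with no filter, 0 with a filter at 5 FPKM, 0 with the 2 groups alone and 2 with the replicate block. All called genes numbered 109 in KO against HET CD62Llo and 5 in CD62Lhi with the 2 groups alone, and 10, 4 and 3 for the interaction with a pseudocount of 5, with no filter and with no trend.

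Leaving out 1 library in turn, called genes numbered 1187 to 1974 between the KO fractions, 1916 to 3337 between the HET fractions, 182 to 610 in KO against HET CD62Llo, 0 to 5 in CD62Lhi and 1 to 5 for the interaction. The count of 1187 came without KO CD62Llo replicate 2. Omitting HET CD62Lhi replicate 1 gave 1916, and omitting HET CD62Llo replicate 2 gave 182. Called family genes numbered 2 to 5 between the KO fractions, 3 to 7 between the HET fractions and 0 to 2 in KO against HET CD62Llo. The members' median was 0.93 to 1.34 and 0.89 to 1.45 between the KO and HET fractions, -0.76 to -0.52 and -0.33 to -0.32 for KO minus HET in CD62Llo and CD62Lhi, and -0.53 to -0.29 for the interaction. With the replicate block, called genes numbered 2287 between the KO fractions, 3636 between the HET fractions and 755 in KO against HET CD62Llo, each within 1.5 times the unblocked count. Anxa5 was called with the block in both fraction comparisons, at 0.29 in KO and 0.35 in HET. Beside the 73.7% and 67.9% of calls that were higher in CD62Llo in KO and HET, quantile scaling gave 54.5% and 46.6% and median centring 50.5% and 45.0%. In KO against HET CD62Llo 29.5% of calls were higher, against 43.3% and 44.6%. Median centring moved the median of all genes by -0.103 between the HET fractions. The causes of these changes were not tested. Genes under about 1 FPKM are not resolved at this depth, and with 2 or 3 libraries per group an uncalled difference is not shown to be absent.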
